A study of Mus musculus with 5 samples.

Results

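The proteasome genes were followed in the mouse microglial line BV-2 through exposure to urban particulate matter and pretreatment with trazodone. A gene was a member when its symbol was Pomp, or was Psma, Psmb, Psmc, Psmd, Psme, Psmf or Psmg followed by a number and at most 1 further letter. The rule found 50 members among the 40879 symbols listed, the same 50 in all 5 libraries. They were 7 alpha subunits and 7 constitutive beta subunits of the core, 4 tissue-specific or inducible catalytic subunits, 6 ATPases and 11 non-ATPases of the regulatory particle, 5 activators and inhibitors, 5 factors of core assembly, 3 chaperones of the regulatory particle, the testis subunit gene Psma8 and Psme2b, a near copy of Psme2.

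The study had 1 library per group. One was of cells labelled as normal control, and 1 of cells exposed to urban particulate matter alone at 50 µg/mL for 23 h (UPM). The other 3 were of cells given trazodone, an antidepressant, at 1.25, 2.5 or 5 µg/mL for 1 h before the same particle exposure (TZ 1.25, TZ 2.5 and TZ 5). All groups used the same cell line, and the protocol gives 1 medium with fetal bovine serum for all. The labels do not say what vehicle the control received, or whether groups came from separate cultures. With 1 library each, every difference below is one between libraries, with no replicate to check it.

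The proteasome is the protease that destroys proteins tagged with ubiquitin. Its barrel-shaped core is built from outer alpha rings and inner beta rings that hold the active sites. A regulatory particle on the end of the core recognises, unfolds and feeds in the substrate. In immune cells such as microglia, interferon can replace the constitutive catalytic subunits by inducible ones, which changes the peptides made for presentation. Dedicated assembly factors build the core and the regulatory particle but are not part of the finished enzyme.

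Library totals ran from 6829720 to 7696168 counts. The values are 3′-end counts, which are taken near the end of each transcript, so they were scaled to the library total (CPM) and not divided by length, and no level was compared between genes. Of the microglia and macrophage markers 10 of 12 reached 10 CPM in a library and their sum was 3081 to 3486 CPM, but the homeostatic markers P2ry12 and Tmem119 stayed below 10 CPM. Sums of the neuron, astrocyte, oligodendrocyte and endothelium markers stayed at or below 3.90 CPM, with Aqp4 and Mog at 0 in all libraries. Small nucleolar RNA symbols took 0.0892% to 0.111% of all counts in the control, UPM and TZ 1.25 libraries, against 0.0679% with TZ 2.5 and 0.0486% with TZ 5, and mitochondrial ribosomal RNA 7.94% to 8.80% in the first 3 libraries and 7.0% to 7.06% in the others. Both shares were lower at the 2 higher doses, and their part in the results below was not tested.

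Of the 50 members 47 had a mean of at least 10 CPM over the libraries, and their means ranged from 19.8 CPM for Psmf1 to 1192 CPM for Psmc1. The other 3 were Psme2b, at 5.49 to 10.5 CPM, the thymus catalytic subunit gene Psmb11, at 0 in all libraries, and Psma8, at 0 in 4 libraries and 1 count in UPM. A count of 0 allows up to 3 counts, or 0.390 to 0.439 CPM by library. The summed share of all members was 1.03% of the control library, 0.961% of the UPM library, 0.989% of TZ 1.25, 1.04% of TZ 2.5 and 1.01% of TZ 5. The ratio of the highest to the lowest library was under 1.5 for 39 of the 47 members, or 83.0%, and likewise for 83.2% of the 8341 genes with a mean of at least 10 CPM. The alpha subunit gene Psma7 was the steadiest, with 566 to 585 CPM and a ratio of 1.03, and the maturation factor gene Pomp the least steady, with a ratio of 1.94.

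**Figure D1:**
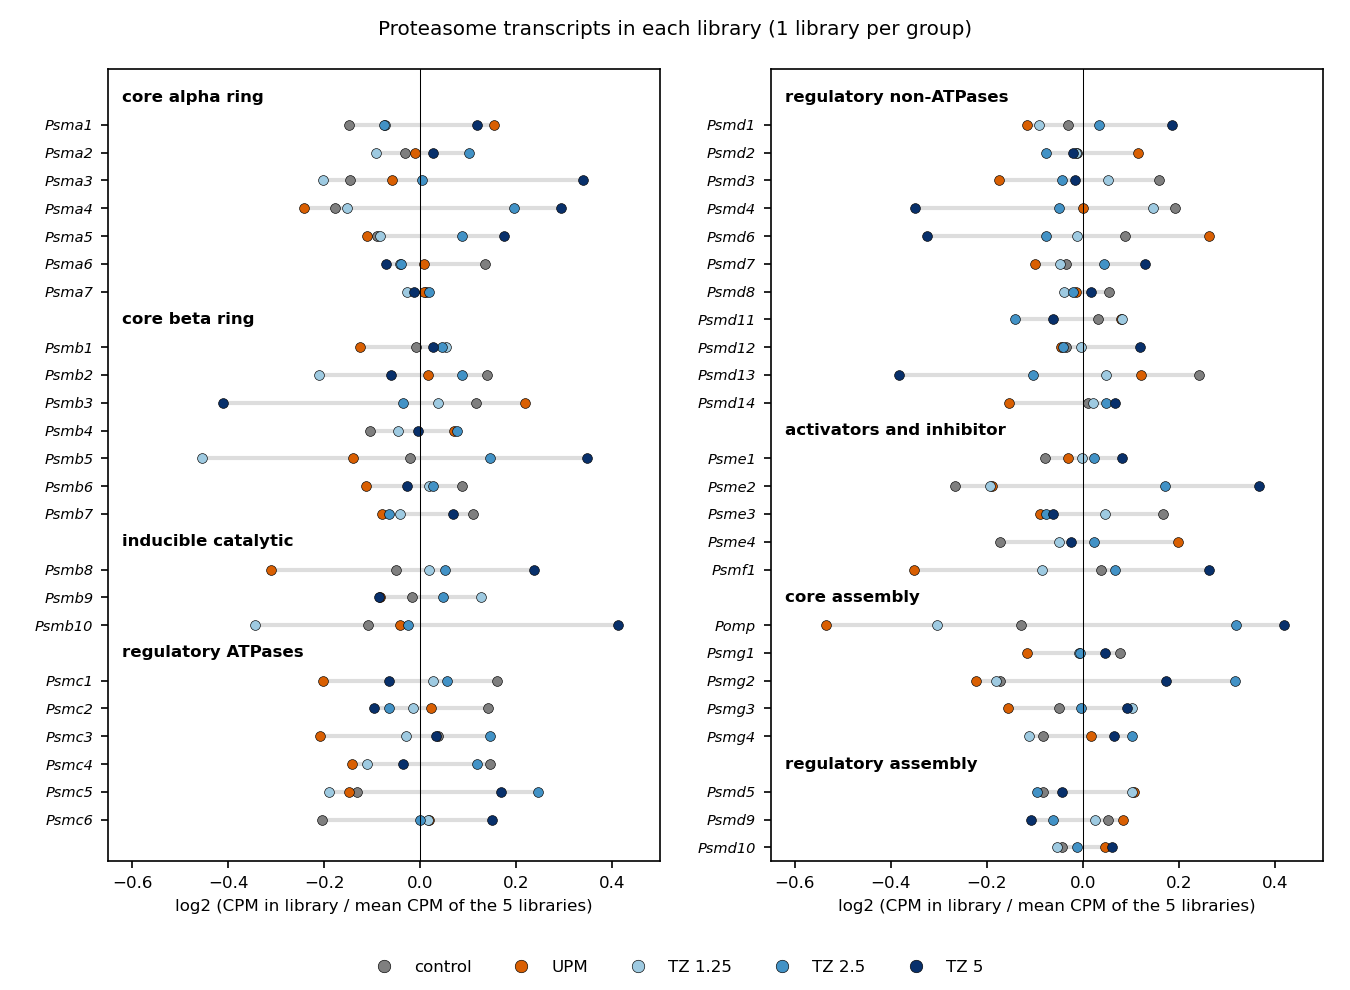
Level of each of the 47 measured members in each library, as log2 of its CPM over the mean of the 5 libraries, grouped by role; each point is 1 library. Most members spread narrowly around 0, while Pomp, Psma4, Psme2 and Psmb10 have their highest point in TZ 5 and Psmb3, Psmd13, Psmd4 and Psmd6 their lowest.

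UPM against control asks how the particles alone bear on proteasome transcripts. No member with at least 10 CPM differed by 1.5-fold. Pomp stood lower in UPM by less than that, as did 4 of the 6 regulatory particle ATPases with intervals below 1. Intervals below 1 were found for 18 of the 47 members measured and for 1537 of all 8282 genes measured. Psme2b, with too few counts to be called, had 5.49 CPM in UPM and 10.5 CPM in the control, 0.522-fold (0.350 to 0.768). Calls needed a 1.5-fold difference up or down, a 95% counting interval that left out 1, and 10 CPM or more as the mean of both libraries. Under this rule 0 of 47 measured members were called higher, against 1.67% of all 8282 genes measured, and 0 lower, against 1.41%. The median log2 fold was −0.07 over the members and 0.00 over all genes. Folds under 1 were found for 30 of 47 members and 4215 of all 8282 genes.

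Among the core assembly factors, Pomp, whose protein guides the beta ring during assembly and is the first substrate of the new core, had 206 CPM in UPM and 272 CPM in the control, a fold of 0.755 (0.707 to 0.807). The 5 assembly factors were summed to 417 CPM in UPM and 491 CPM in the control, 0.850-fold (0.810 to 0.891), but 0.967-fold without Pomp. Of the 6 regulatory ATPases, which unfold the substrate, 5 had folds under 1. The lowest was Psmc1, with 1036 CPM in UPM and 1331 CPM in the control, or 0.778-fold (0.756 to 0.802). The sixth, Psmc6, had 116 CPM in UPM and 99.6 CPM in the control, 1.17-fold (1.06 to 1.29). As a class the ATPases were 0.834-fold (0.816 to 0.853) in UPM, and 0.913-fold without Psmc1.

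The non-ATPases of the regulatory particle were 0.936-fold (0.921 to 0.952) as a class in UPM. Their lowest member was Psmd3, a subunit of the lid, with 225 CPM in UPM and 283 CPM in the control, 0.794-fold (0.744 to 0.846), and their highest was Psmd6, another lid subunit, with 134 CPM in UPM and 119 CPM in the control, 1.13-fold (1.03 to 1.24). The core rings gave class folds whose intervals included 1, at 1.01 (0.98 to 1.03) for the alpha ring and 0.998 (0.972 to 1.02) for the constitutive beta ring. Within the alpha ring the extremes were Psma1 at 1.23-fold (1.13 to 1.34) and Psma6 at 0.916-fold (0.851 to 0.985). Within the beta ring the lowest was Psmb6, a catalytic subunit, at 0.870-fold (0.821 to 0.923), and the highest Psmb4, a structural one, at 1.13-fold (1.08 to 1.18).

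The highest fold of all measured members was that of Psme4, a nuclear activator that caps the core in place of the regulatory particle, with 102 CPM in UPM and 78.5 CPM in the control, 1.29-fold (1.16 to 1.44). Psmf1, which encodes a proteasome inhibitor protein, had 15.6 CPM in UPM and 20.4 CPM in the control, 0.764-fold (0.596 to 0.977). The assembly chaperones of the regulatory particle were the one class whose 3 folds were all above 1, with Psmd5 the highest at 1.14-fold (1.01 to 1.28) and Psmd9 the lowest, a log2 fold of 0.03.

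A fit of all 5 libraries with a UPM term and a linear term for trazodone dose, tested by edgeR's quasi-likelihood method with Benjamini-Hochberg adjustment over 12381 genes, covered 48 members. Its UPM term called 0 of them higher, against 0.0808% of all genes, and 0 lower, against 0.0323%. At an unadjusted p under 0.05 there were 5 of 48 members and 964 of all 12381 genes, and the DESeq2 Wald test called 0. The term rests on a lone control, whose spread is taken to equal that of the exposed libraries about their line. Pomp had a log2 estimate of −0.32 (SE 0.12, adjusted p = 0.484), and was called lower (adjusted p = 0.00485) only when TZ 5 was left out, where the estimate was −0.46.

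**Figure D2:**
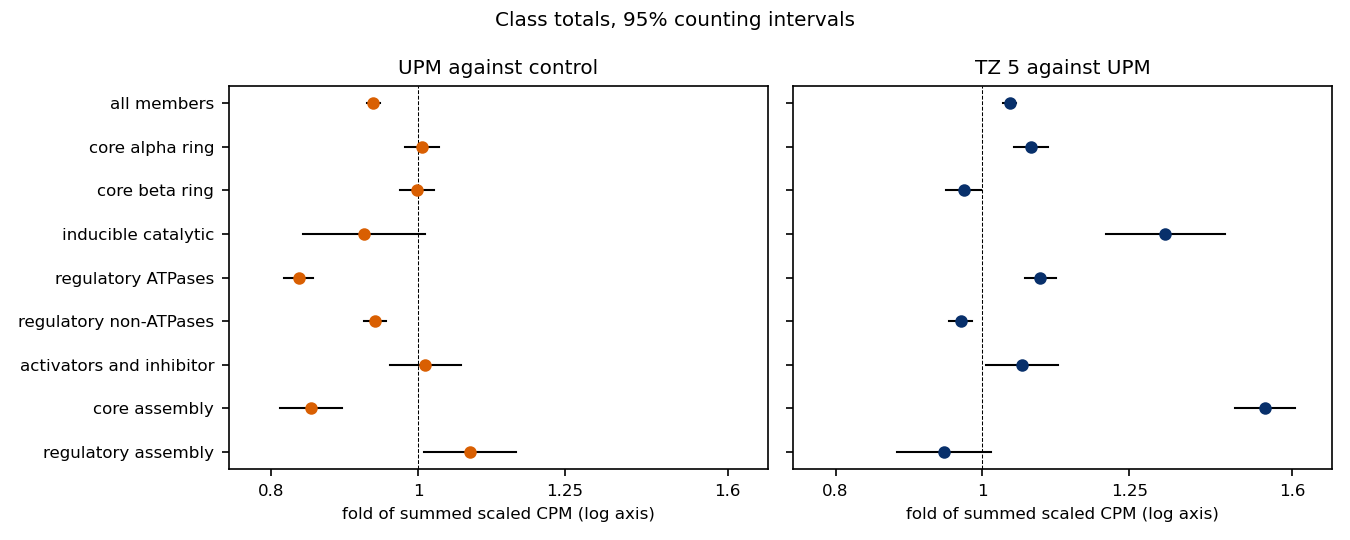
Fold of the summed scaled CPM of each class of members, for UPM against control (left) and TZ 5 against UPM (right), on a log axis; points are folds and bars 95% counting intervals. The core assembly factors stand at 0.850-fold in UPM against control and at 1.54-fold in TZ 5 against UPM, while the other classes lie between 0.834-fold and 1.32-fold.

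Trazodone dose was tested in particle-exposed cells in the same fit, which has 2 residual degrees of freedom, so its p-values rest mostly on spread shared across genes. A total of 8 members passed the test, in both directions. The 4 that rose with dose were Pomp, the alpha subunit genes Psma4 and Psma3 and the activator gene Psme2. The 4 that fell were the beta subunit gene Psmb3 and the regulatory particle genes Psmd13, Psmd6 and Psmd4. This is 4 of 48 members tested in each direction, where 2.95% of all genes rose and 2.50% fell.

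Pomp had 272 CPM in the control, 206 CPM in UPM, 241 CPM in TZ 1.25, 371 CPM in TZ 2.5 and 398 CPM in TZ 5. The higher doses stood above both the control and UPM, and the lowest dose stood between UPM and the control. Its log2 level rose by 1.00 over 5 µg/mL (SE 0.13, adjusted p = 4.63e-07), and it passed in all 10 alternatives to this fit, with adjusted p from 8.28e-15 to 0.0301. Pomp was the single member called in TZ 2.5 against UPM, at 1.81-fold (1.69 to 1.92), and it was 1.94-fold (1.82 to 2.06) in TZ 5 against UPM. Against the control it was 1.46-fold (1.38 to 1.55) in TZ 5, under the limit of 1.5.

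Psma4 and Psma3 encode subunits of the alpha ring, which gates the entry to the core. Psma4 had 237 CPM in the control, 226 CPM in UPM, 241 CPM in TZ 1.25, 307 CPM in TZ 2.5 and 328 CPM in TZ 5. Like Pomp, it was high at the 2 higher doses and between 226 and 241 CPM in the other 3 libraries. It rose by 0.57 on the log2 scale over 5 µg/mL (SE 0.12, adjusted p = 0.00108) and was called in 9 of 10 alternatives, the exception being the fit without UPM (adjusted p = 0.0545). Psma3 had 71.1 CPM in the control, 75.5 CPM in UPM, 68.3 CPM in TZ 1.25, 78.8 CPM in TZ 2.5 and 99.5 CPM in TZ 5, and was high in TZ 5 alone. It rose by 0.46 (SE 0.14, adjusted p = 0.0441), and passed in 4 of 10 alternatives, with adjusted p from 0.0186 to 0.924. Without TZ 5 its adjusted p was 0.924, and it was also not called without TZ 1.25, without TZ 2.5, with total counts, with dose as rank or by DESeq2.

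Psme2 encodes the beta subunit of an interferon-inducible ring that opens the core without ATP. It had 37.4 CPM in the control, 39.5 CPM in UPM, 39.4 CPM in TZ 1.25, 50.7 CPM in TZ 2.5 and 58.0 CPM in TZ 5. It rose by 0.61 (SE 0.17, adjusted p = 0.0227), was called in TZ 5 against the control at 1.55-fold (1.33 to 1.81) and was 1.47-fold (1.26 to 1.71) in TZ 5 against UPM. It was not called by DESeq2 (adjusted p = 0.109), nor without UPM (0.0996), TZ 1.25 (0.0501) or TZ 5 (0.377). The last 300 bases of its transcript match Psme2b at 99.0% identity, so its reads may be split. With both genes summed, an alternative chosen after seeing the data, the log2 slope was 0.12 per µg/mL, as for Psme2 alone, and the adjusted p was 0.0235. The pairwise folds were not taken again for the sum. Psme2b had 10.5 CPM in the control, 5.49 CPM in UPM and 7.54 CPM in TZ 5. The call of Psme2 in TZ 5 against the control may therefore depend on how reads were assigned between these genes. Psme1, which encodes the alpha subunit of the same ring, had 90.6 to 101 CPM, and its dose term did not pass (adjusted p = 0.739).

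Psmb3 encodes a structural subunit of the beta ring. It had 200 CPM in the control, 215 CPM in UPM, 190 CPM in TZ 1.25, 180 CPM in TZ 2.5 and 139 CPM in TZ 5. The level in TZ 5 was the lowest of the 5, below both control and UPM. It fell by 0.61 on the log2 scale over 5 µg/mL (SE 0.12, adjusted p = 0.000702), and was 0.647-fold (0.597 to 0.701) in TZ 5 against UPM, which was called. In total 4 processed pseudogenes, none of them listed in the count files, match 140 to 241 of its last 300 bases at 96.6% to 99.2% identity, so reads that match both places may be lost from Psmb3.

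The regulatory particle gave 3 of the 4 falls. Psmd13, a lid subunit, had 365 CPM in the control, 336 CPM in UPM, 320 CPM in TZ 1.25, 288 CPM in TZ 2.5 and 237 CPM in TZ 5, lower with each step. It fell by 0.52 (SE 0.11, adjusted p = 0.00226), and was called in TZ 5 against the control at 0.649-fold (0.610 to 0.690), though not against UPM, at 0.706-fold (0.663 to 0.751).

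Psmd6 had 119 CPM in the control, 134 CPM in UPM, 111 CPM in TZ 1.25, 106 CPM in TZ 2.5 and 89.2 CPM in TZ 5. It was highest in UPM and lowest in TZ 5, fell by 0.55 (SE 0.13, adjusted p = 0.00613) and was called in TZ 5 against UPM at 0.666-fold (0.602 to 0.737), which missed the limit with total counts, at 0.674-fold, and with thinned libraries, at 0.670-fold. Psmd4, a receptor that binds ubiquitin chains, had 927 CPM in the control, 813 CPM in UPM, 899 CPM in TZ 1.25, 785 CPM in TZ 2.5 and 638 CPM in TZ 5. Its values in the first 4 libraries followed no order of dose and TZ 5 was the low one, with a fall of 0.42 (SE 0.11, adjusted p = 0.0175).

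The calls of the 4 falls needed the TZ 5 library. Without it none of them passed, with adjusted p of 0.255 for Psmb3, 0.306 for Psmd13, 0.141 for Psmd6 and 0.891 for Psmd4. The log2 slope per µg/mL without TZ 5 was −0.10 for Psmb3 and −0.12 with it. For Psmd13 it was −0.091 without and −0.10 with TZ 5, and for Psmd6 −0.14 without and −0.11 with it. The slope of Psmd4 was −0.021 without TZ 5 and −0.084 with it. The same fit called 3 members higher, namely Pomp, Psma4 and the ATPase gene Psmc3. Without UPM Psmd6 was not called (0.269), and without TZ 1.25 Psmd4 was not (0.0845). By DESeq2 all 4 falls were called, and of the rises Pomp and Psma4.

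**Figure D3:**
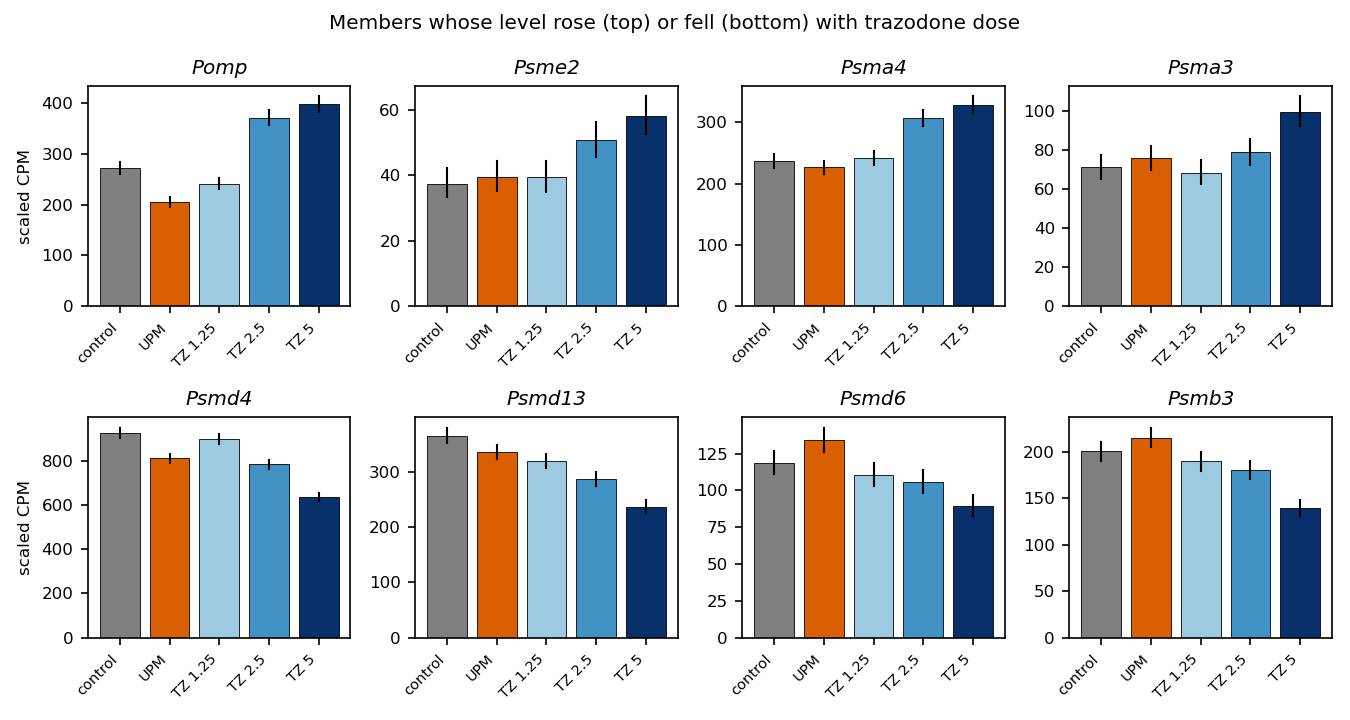
Scaled CPM of the 8 members that passed the test for trazodone dose, in each of the 5 libraries; bars start at 0 and lines are 95% Poisson counting intervals of the single library. Pomp stands at 371 and 398 CPM in TZ 2.5 and TZ 5, above the 206 to 272 CPM of the other libraries, and the 4 members of the lower row have their lowest bar in TZ 5.

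The other 40 members tested did not pass. At an unadjusted p under 0.05 there were 16 of 48 members, the 8 above included, and 2175 of all 12381 genes. For the other 40, dose estimates ran to both sides of 0. With dose as rank 6 members were called as rising, namely Pomp, Psma4, Psme2, Psmb8, Psmc5 and Psmd1, and 4 as falling. Dose as rank called 916 of all 12381 genes in either direction, and an excess of members was not tested. All 5 core assembly factors had estimates above 0, of which Pomp alone passed. Psmg2, a chaperone that starts the alpha ring, had 45 CPM in TZ 2.5 and 31.0 CPM in UPM, 1.45-fold (1.22 to 1.73), and 40.8 CPM in TZ 5, 1.32-fold (1.10 to 1.57), with an adjusted p of 0.198 for dose. Psmg1, Psmg3 and Psmg4 had folds from 1.03 to 1.19 in TZ 5 against UPM. The sum of the class was 641 CPM in TZ 5 and 417 CPM in UPM, 1.54-fold (1.47 to 1.61), and 1.15-fold without Pomp.

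Of the 6 ATPases 0 passed for dose in edgeR's test, and 1, Psmc5, had an unadjusted p under 0.05, at 105 CPM in TZ 5 and 84.2 CPM in UPM, 1.25-fold (1.12 to 1.39, adjusted p = 0.118). DESeq2 called 0 of them too. The lowest of the ring was Psmc2, with 255 CPM in TZ 5 and 277 CPM in UPM, 0.922-fold (0.865 to 0.983). As a class the ATPases were 1.16-fold (1.14 to 1.19) in TZ 2.5 against UPM, 1.09-fold (1.07 to 1.12) in TZ 5 against UPM and 0.910-fold (0.890 to 0.931) in TZ 5 against the control. The highest of the non-ATPases in TZ 5 against UPM was Psmd1, a large scaffold subunit, with 639 CPM in TZ 5 and 518 CPM in UPM, 1.23-fold (1.18 to 1.29), and its dose term missed the limit (adjusted p = 0.0610). As a class the non-ATPases were 0.967-fold (0.951 to 0.984) in TZ 5 against UPM, but 1.02-fold without Psmd4.

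Of the other activators and inhibitors, Psmf1 had 23.8 CPM in TZ 5 and 15.6 CPM in UPM, 1.53-fold (1.20 to 1.95), and was called. With libraries thinned to the smallest total it was 1.46-fold and not called, its dose term did not pass (adjusted p = 0.157), and the control at 20.4 CPM lay between them. Psme4 had 87.0 CPM in TZ 5 and 102 CPM in UPM, 0.857-fold (0.769 to 0.955). Psme3, which encodes a nuclear activator, had 120 CPM in the control, 100 CPM in UPM, 110 CPM in TZ 1.25, 101 CPM in TZ 2.5 and 102 CPM in TZ 5, and the exposed libraries all stood below the control. Of the chaperones of the regulatory particle, Psmd10 was the highest in TZ 5 against UPM at 1.01-fold (0.908 to 1.12) and Psmd9 the lowest at 0.875-fold (0.741 to 1.03), and both intervals included 1. In the alpha ring the lowest was Psma6 at 0.946-fold (0.875 to 1.02), whose interval also included 1.

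By pairs, 0 of 47 members were called in TZ 1.25 against UPM, where 1.19% of genes were called higher and 1.03% lower. In TZ 2.5 against UPM 1 was called higher (background 2.67%) and 0 lower (1.73%). In TZ 5 against UPM 2 were called higher, Pomp and Psmf1 (3.78%), and 2 lower, Psmb3 and Psmd6 (2.80%). Against the control, 0 were called in TZ 1.25 (1.56% higher and 0.821% lower) and in TZ 2.5 (2.21% and 1.41%), while in TZ 5 Psme2 was called higher (3.55%) and Psmd13 lower (2.51%). The shares of members were above those of all genes in TZ 5 against UPM, where each rests on 2 genes, and under them in the other pairs. The comparisons share their UPM or control library. The median log2 fold of the members against UPM was 0.00 in TZ 1.25, 0.07 in TZ 2.5 and 0.11 in TZ 5, while that of all genes was between −0.01 and 0.00.

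The catalytic sites exist in 2 forms, and the data show whether the inducible form gained on its constitutive partner. Psmb8, Psmb9 and Psmb10 take the places of Psmb5, Psmb6 and Psmb7 in the immunoproteasome. Psmb8 had 62.0 CPM in the control, 51.8 CPM in UPM, 65.0 CPM in TZ 1.25, 66.5 CPM in TZ 2.5 and 75.7 CPM in TZ 5. It was lowest in UPM and highest in TZ 5, 1.46-fold (1.28 to 1.67) between these, with an adjusted p for dose of 0.0532. It passed with dose as rank (adjusted p = 0.0272) and without TZ 1.25 (0.0289), and over all 10 alternatives its adjusted p ran from 0.0272 to 0.615.

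Its constitutive partner Psmb5 followed the same order apart from TZ 1.25, with 25.8 CPM in the control, 23.8 CPM in UPM, 19.1 CPM in TZ 1.25, 29.0 CPM in TZ 2.5 and 33.4 CPM in TZ 5, and its dose term did not pass either (adjusted p = 0.0727). The share of Psmb8 in the counts of the pair does not depend on library scaling. It was 70.6% (67.0 to 74.1, Clopper-Pearson) for the control, 68.5% (64.6 to 72.3) for UPM, 77.3% (73.7 to 80.5) for TZ 1.25, 69.6% (66.0 to 73.1) for TZ 2.5 and 69.4% (66.0 to 72.7) for TZ 5, so TZ 1.25 alone stood apart from UPM. Because each gene is counted at its own 3′ end, a share is comparable between libraries and not a ratio of the proteins.

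Psmb10 had 34.1 CPM in the control, 35.7 CPM in UPM, 29.0 CPM in TZ 1.25, 36.1 CPM in TZ 2.5 and 48.9 CPM in TZ 5. It was high in TZ 5, 1.37-fold (1.16 to 1.61) of UPM, with an adjusted p for dose of 0.0604 and a call only in the fit without UPM (0.00848). Its share with Psmb7 was 16.6% (14.8 to 18.5) for the control, 19.2% (17.2 to 21.3) for UPM, 15.8% (13.9 to 17.9) for TZ 1.25, 19.2% (17.1 to 21.4) for TZ 2.5 and 22.7% (20.6 to 24.9) for TZ 5, so the interval of TZ 5 overlapped that of UPM and not that of the control. Psmb9 had 28.7 to 33.3 CPM, with 0.999-fold (0.820 to 1.22) in TZ 5 against UPM, and its share with Psmb6 was 8.53% to 9.76% with intervals that overlapped in all 5 libraries. Summed over the 3 pairs, the inducible share was 19.5% (18.4 to 20.7) for the control, 20.3% (19.2 to 21.6) for UPM, 20.9% (19.7 to 22.2) for TZ 1.25, 21.5% (20.3 to 22.7) for TZ 2.5 and 23.5% (22.3 to 24.8) for TZ 5. These intervals cover counting error only and are not a test of conditions. The sum also sets Psmb8 beside the larger counts of Psmb6 and Psmb7, so it can rise without a gain in each pair. Within the pairs, the share in UPM and in TZ 5 was 68.5% and 69.4% for Psmb8 and 9.29% and 8.79% for Psmb9. For Psmb10 it was 19.2% and 22.7%. The constitutive partner Psmb6 had 323 CPM in the control, 281 CPM in UPM, 307 CPM in TZ 1.25, 309 CPM in TZ 2.5 and 298 CPM in TZ 5. Psmb7 had 171 CPM in the control, 150 CPM in UPM, 154 CPM in TZ 1.25, 152 CPM in TZ 2.5 and 167 CPM in TZ 5. Both were highest in the control, and neither passed for dose in any of the 10 alternatives.

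Within the interferon-inducible activator ring, the share of Psme2 in the counts of Psme2 and Psme1 was 29.2% (26.4 to 32.2) for the control, 29.6% (26.8 to 32.5) for UPM, 29.2% (26.3 to 32.1) for TZ 1.25, 34.2% (31.3 to 37.2) for TZ 2.5 and 36.4% (33.6 to 39.4) for TZ 5. The interval of TZ 5 lay above those of UPM and the control. The share of both together against Psme3, the nuclear form, was 51.6% (49.3 to 53.9) for the control, 57.0% (54.7 to 59.3) for UPM, 55.1% (52.7 to 57.4) for TZ 1.25, 59.4% (57.0 to 61.7) for TZ 2.5 and 60.9% (58.6 to 63.2) for TZ 5.

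**Figure D4:**
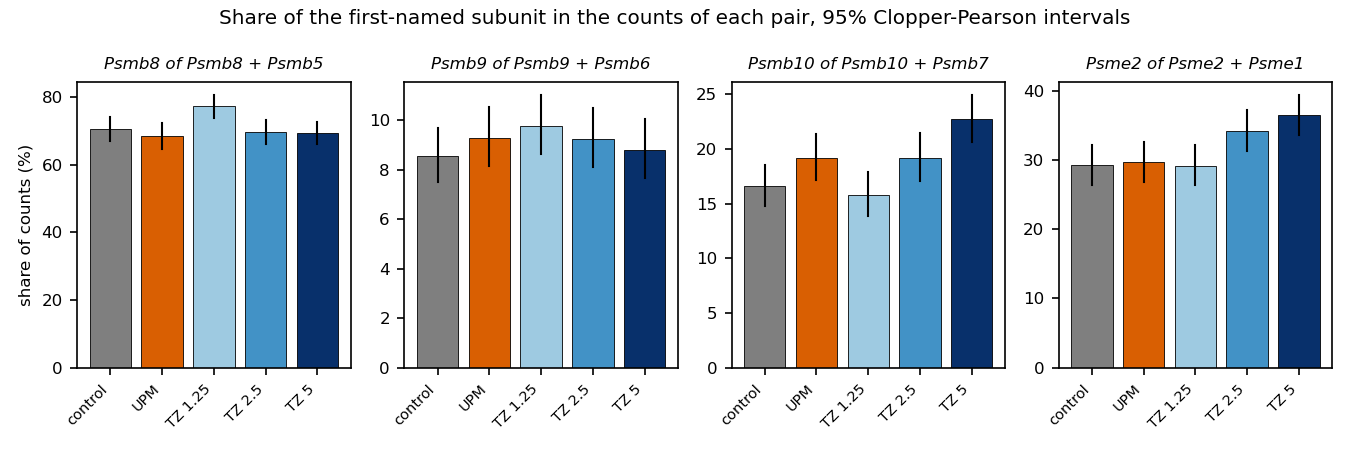
Share of the first-named subunit in the summed counts of each pair, in percent, in each of the 5 libraries, with 95% Clopper-Pearson intervals. Psmb8 stands at 69.4% in TZ 5 and 68.5% in UPM, Psmb10 is highest in TZ 5 at 22.7%, and Psme2 reaches 36.4% in TZ 5 against 29.6% in UPM.

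Ubiquitin supply and delivery, the step before the proteasome, was followed as a list of 16 genes. Of these 1 rose and 2 fell with dose in edgeR's test, where 2.95% of all genes rose and 2.50% fell. Rps27a, which encodes ubiquitin fused to a ribosomal protein, had 217 CPM in the control, 205 CPM in UPM, 206 CPM in TZ 1.25, 312 CPM in TZ 2.5 and 352 CPM in TZ 5, the same step between TZ 1.25 and TZ 2.5 as Pomp and Psma4. It rose by 0.87 (SE 0.12, adjusted p = 3.73e-06) and was 1.72-fold (1.61 to 1.83) in TZ 5 against UPM. Vcp, a segregase that pulls ubiquitin-tagged proteins out of complexes, had 322 CPM in TZ 5 and 428 CPM in UPM, and fell by 0.39 (SE 0.11, adjusted p = 0.0255). In UPM against control 0 of the 16 were called. The list's median log2 fold was −0.08 in UPM against control and 0.07 in TZ 5 against UPM.

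Among the genes of proteasome-bound partners and transcription factors, 13 of 14 symbols were listed and 12 were tested. Of these 0 rose and 0 fell with dose in edgeR's test, 1 had an unadjusted p under 0.05, and 0 of the 11 measured were called in any pair with UPM. Nfe2l1, the factor that induces proteasome genes when proteasome activity is short, had 114 CPM in UPM and 151 CPM in the control, 0.753-fold (0.689 to 0.824), and 130 CPM in TZ 5, 1.14-fold (1.04 to 1.25) of UPM. The highest in TZ 5 against UPM was Ecpas, which encodes a scaffold protein of the proteasome, at 1.23-fold (1.07 to 1.40), and the lowest Nfe2l2, the factor of the oxidative stress response, at 0.878-fold (0.829 to 0.929). Sem1, a small lid subunit whose symbol the rule does not cover, had 345 CPM in TZ 5 and 304 CPM in UPM, 1.14-fold (1.07 to 1.20, adjusted p for dose 0.270).

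The members that rose or fell were looked at for features the rule did not use. The last 300 bases of the transcript, where 3′-end reads fall, had a GC content of 34.7% to 46.7% in the 4 that rose (median 40.5%). It was 39.0% to 53.7% in the 4 that fell (median 52%) and 27.0% to 56.3% in the other 40 (median 45.5%). Among those that fell, Psmd6 at 39.0% alone lay in the range of those that rose. Psmb3 at 50.7%, Psmd4 at 53.3% and Psmd13 at 53.7% lay above it. The part of GC content in these changes was not tested. Transcript lengths were 962 to 3850 bases in those that rose, 766 to 1989 in those that fell and 555 to 6491 in the others. Across the 48 members, which share the same 5 libraries, the dose estimate had a Spearman correlation of 0.03 with the GC content of the last 300 bases and −0.12 with transcript length. Across 10547 genes tested these were −0.08 and −0.05. Near copies not listed in the count files exist for Psma5, Psmb5, Psme1 and Psmd2 as well as Psmb3, and Psmd1 shares 231 of its last 300 bases with Gm21972, which overlaps it on the same strand and is not listed either. Psmb7, Psmc3 and Psme1 overlap Nek6, Slc39a13 and Emc9, in that order, on the opposite strand. No source used here states how strand was handled, so the values of these genes are less certain.

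Promoters are shown for members that rose with dose (Pomp, Psma4), that fell (Psmb3, Psmd4) and for the catalytic subunit Psmb5, to set members that moved together beside each other. RefSeq entries on GRCm38.p6 existed for 42 of the 50 members. The motifs searched on both strands were TGACNNNGC, the core of the element bound by NFE2L1 and NFE2L2, CCAAT, bound by NF-Y, and the core of the interferon-stimulated element, which is GAAA, any 2 bases and GAAA again. The 250 bases before each start are given, with matches in capitals.
Pomp, chr5:147860378-147860627, plus strand: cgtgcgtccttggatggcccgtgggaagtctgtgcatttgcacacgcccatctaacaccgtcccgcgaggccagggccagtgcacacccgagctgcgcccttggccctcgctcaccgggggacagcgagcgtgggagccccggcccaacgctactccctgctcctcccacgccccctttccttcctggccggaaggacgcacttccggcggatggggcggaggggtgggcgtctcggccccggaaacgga
Psma4, chr9:54950609-54950858, plus strand: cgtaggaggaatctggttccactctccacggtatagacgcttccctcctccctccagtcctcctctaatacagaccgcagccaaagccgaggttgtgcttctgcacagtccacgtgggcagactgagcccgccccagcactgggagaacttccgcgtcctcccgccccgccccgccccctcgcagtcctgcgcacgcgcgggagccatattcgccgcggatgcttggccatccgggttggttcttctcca
Psmb3, chr11:97703184-97703433, plus strand: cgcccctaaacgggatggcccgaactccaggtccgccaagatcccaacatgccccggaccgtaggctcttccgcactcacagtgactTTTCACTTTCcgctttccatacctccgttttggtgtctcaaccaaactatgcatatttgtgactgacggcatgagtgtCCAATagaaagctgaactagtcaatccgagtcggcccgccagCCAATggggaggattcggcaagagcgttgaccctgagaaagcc
Psmd4, chr3:95042615-95042864, minus strand: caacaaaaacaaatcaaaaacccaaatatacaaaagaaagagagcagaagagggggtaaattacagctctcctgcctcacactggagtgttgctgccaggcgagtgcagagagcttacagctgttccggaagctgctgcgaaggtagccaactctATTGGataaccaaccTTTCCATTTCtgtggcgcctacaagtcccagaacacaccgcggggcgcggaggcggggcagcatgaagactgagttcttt
Psmb5, chr14:54617996-54618245, minus strand: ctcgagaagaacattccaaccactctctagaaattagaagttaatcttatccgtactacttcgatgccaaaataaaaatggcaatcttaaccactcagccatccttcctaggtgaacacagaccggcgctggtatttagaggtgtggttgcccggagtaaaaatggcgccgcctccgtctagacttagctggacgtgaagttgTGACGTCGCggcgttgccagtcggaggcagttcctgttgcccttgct

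Neither Pomp nor Psma4 held a match in this window. Psmb3 held CCAAT at 85 and 43 bases before the start, and the interferon core on the other strand at 163 bases before it. Psmd4 held CCAAT at 95 bases and the interferon core at 80 bases before the start, both on the other strand. Psmb5 held TGACNNNGC at 47 bases before the start. Of the members called for dose whose promoters are not shown, Psma3, which rose, held CCAAT at 139 bases before the start. Psme2, which rose, and Psmd13 and Psmd6, which fell, held no match in this window. A link between motif and direction of change was not tested. Over the window with the first 50 bases of the transcript added, TGACNNNGC was found in 6 of 42 members (14.3%) and 14% of all 27025 genes with a promoter entry, CCAAT in 14 (33.3%) and 41.1%, and the interferon core in 5 (11.9%) and 3.99%. The 5 with the interferon core were Psmb3, Psmd4, Psmd9, Psme1 and Psmg4, of which the first pair fell with dose and the others did not pass. The inducible subunits Psmb8, Psmb9 and Psmb10 were not among them, and a match is a description of letters, not of binding.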

How the data were processed

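For each library the authors deposited a file of raw counts by gene symbol, from QuantSeq 3′-end libraries read as single-end 75-bp reads, per the labels' protocols. STAR, edgeR and GRCm39 are named per the submitters' processing notes. No source used here states the counting program, annotation or strand handling.

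Counts were scaled by library total and by TMM factors over all 5 libraries (0.991 to 1.01). Folds of genes and of class totals are ratios of scaled CPM with 95% exact conditional binomial intervals, and single levels in plots have Poisson intervals. All intervals, and the limit given for a count of 0, reflect counting error alone, since each group has 1 library. The reads carry no molecular identifiers, and each read was taken as a separate count. The dose fit used edgeR 4.0.16 (limma 3.58.1, R 4.3.3) after filterByExpr, with 48.7 prior degrees of freedom and an adjusted p limit of 0.05. SE is the size of the estimate over the square root of F. With single libraries, p-values measure only the spread between these samples, which may be technical. DESeq2 1.42.0 was an alternative. The members, gene lists and tests were chosen with earlier results of these data known.

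Named genes were those called in a pair or by dose, the inducible subunits with their partners, activators, Psmf1, Pomp, and the highest and lowest member of each class. Near copies were sought with BLAST in GENCODE M21 transcripts (GRCm38), at 95% identity over 75 bases. Alternatives covered scaling, CPM minimum, fold limit, thinning, filter, dose as rank and libraries left out. Some genes on the lists are counted but not reported here by name.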

Additional observations from a re-analysis of the deposited data

How the results depend on the processing

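No paired analysis was possible because each group has 1 library. Of 740 values for single genes under the alternatives, 715 kept their side of the limit, 20 lost a call and 5 gained one. None that was called in either setting changed direction. Values called in neither could change sign and still count among the 715, as the UPM term of Psmd4 did. Its log2 estimate was −0.068 in the main fit and 0.11 without the UPM library. Of 250 counts, medians and class folds 197 stayed the same.

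Limits on size moved the counts of called members most. For the fold limits of 1.25 and 2 no share of all genes called is given. The member counts at these limits therefore have no background to be compared with, and an excess of members was not tested. At a fold limit of 1.25, 1 member was called higher and 4 lower in UPM against control, 1 and 0 in TZ 1.25 against UPM, 8 and 1 in TZ 2.5 against UPM, 9 and 4 in TZ 5 against UPM, 0 and 2 in TZ 1.25 against control, 5 and 1 in TZ 2.5 against control, and 8 and 4 in TZ 5 against control, while at a limit of 2 there were 0 in every pair. A CPM minimum of 1 added 1 lower call in UPM against control, Psme2b, and a minimum of 30 left 1 higher in TZ 5 against UPM. With thinned libraries TZ 2.5 against UPM had 2 higher, and TZ 5 against UPM 1 higher and 1 lower, and the median log2 fold in UPM against control was −0.081. With total counts TZ 5 against UPM had 1 lower, the medians were 0.10 in TZ 2.5 and 0.13 in TZ 5 against UPM and 0.071 and 0.078 against the control, and the fold of all members in TZ 5 against UPM was 1.05.

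For dose, DESeq2 called 2 members that rose and 300 genes in all, against 4 and 674 with edgeR. With 1 exposed library left out the counts were 3 to 4 members that rose, 0 to 4 that fell and 209 to 576 genes in all, and without the control 4, 4 and 680. For the UPM term, of 14 genes in all with edgeR, DESeq2 and total counts each called 6, no filter 34, dose as rank 26, no dose term 1, and the fits without 1 library 14 to 80 genes and 0 to 1 members lower. Without the member with the most counts, the class folds in UPM against control were 0.957 for all members, 0.928 for the beta ring, 0.913 for the ATPases, 0.955 for the non-ATPases, 1.10 for activators and 0.967 for core assembly. In TZ 5 against UPM they were 1.13 for the alpha ring, 1.20 for the inducible subunits, 1.02 for the non-ATPases and 1.15 for core assembly. The cause of these moves was not tested, beyond the members removed. Depth limits the members with low counts, as for Psmb9, whose fold in TZ 5 against UPM had an interval of 0.820 to 1.22.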

Other observations

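Genes that act on peptides after the proteasome were taken as a list of 8 linked to interferon. Of the 7 measured in the pair, 0 were called in TZ 5 against UPM, 5 folds were under 1 and the median log2 fold was −0.06. Over all genes 4126 of 8367 folds were under 1 and the median was 0.00. In the dose fit 0 of 8 passed in edgeR's test, with 0 at an unadjusted p under 0.05. Irf1, an interferon-induced transcription factor, had 30.2 CPM in TZ 5 and 37.2 CPM in UPM, 0.810-fold (0.674 to 0.972). Tap1, which encodes a subunit of the peptide transporter and neighbours Psmb9, had 15.2 CPM in TZ 5 and 13.7 CPM in UPM. B2m, the light chain of class I molecules, had 1321 CPM in TZ 5 and 1342 CPM in UPM. Beside these, Psmb8 was 1.46-fold and Psme2 1.47-fold in TZ 5 against UPM. Of the other inducible proteasome genes, Psmb10 had 48.9 CPM in TZ 5 and 35.7 CPM in UPM. Psme1 had 101 CPM in TZ 5 and 93.7 CPM in UPM, and Psmb9 28.7 CPM in both. In UPM against control 0 of the 7 were called, the highest being the peptide trimming gene Erap1 at 1.27-fold (1.06 to 1.52) and the lowest the transporter gene Tap2 at 0.846-fold (0.726 to 0.986).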
